A study of Arabidopsis thaliana with 6 samples.

Results

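STZ and AT3G53600 are zinc finger genes of Arabidopsis thaliana that were followed here through a 30 min exposure of seedlings to a chitin fragment. They are 2 of the 13355 genes that could be named on the array, each through a probe set to which the platform annotation gives exactly 1 gene. A probe set is a group of short probes that reads a transcript. The gene table describes STZ (AT1G27730, also listed as ZAT10) as salt tolerance zinc finger, whereas AT3G53600 carries its locus code alone, so its place among the zinc finger genes rests on the lists used here and not on a text in that table. Both genes were chosen by their measured intensities in chitooctaose and water on these same arrays. Their levels, changes and ranks are therefore given as a description, with no test.

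The chitooctaose arrays measured whole Col-0 seedlings, 14 days old, that received 20 µl of a 0.5 mM solution in 10 ml of liquid medium, a final concentration of 1 µM. The water arrays measured seedlings of the same ecotype and age that received 20 µl of water. All seedlings grew in shaken tubes started with about 30 seeds, under constant light at 23 °C, and were collected at 30 min, so a sample pools whole plants and reads no single organ or cell type. There were 3 arrays per treatment, described by the submitters as biological replicates.

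C2H2 zinc finger proteins bind DNA through fingers in which a pair of cysteines and a pair of histidines hold a zinc ion. The plant subfamily called C1-2i, to which STZ belongs, has separated fingers with a conserved QALGGH motif, and many of its members carry a short EAR motif that recruits co-repressors. STZ is known as a transcriptional repressor whose transcript accumulates early in salt, cold, drought and wounding responses. Chitooctaose is an oligomer of N-acetylglucosamine, the building block of fungal chitin, and plants perceive such oligomers at the cell surface through LysM receptor kinases.

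On the whole table, 22746 probe sets entered the comparison. Array medians lay between 155.7 and 169.2, and 3.81 to 4.91% of the intensities of an array were at or below 16, the floor applied before log2 was taken. The shoot genes LHCB4.1 and LHCB4.2, light-harvesting proteins of the chloroplast, had mean log2 levels above those of 99.8% and 98.9% of the probe sets. The other measured shoot gene, LHCB4.3, stood above 76% of them and EXPA7 above 42.5%. EXPA7, an expansin gene of root hairs and the measured root marker of 9 listed, averaged 107 ± 28.9 in chitooctaose and 137 ± 22.4 in water (SD, n = 3 each). Of 8 listed shoot markers 3 were measured, and neither these nor the root marker was called. Of all probe sets, 5.04% were called, 4.24% as rises and 0.805% as falls (limma, Benjamini-Hochberg adjusted p under 0.05).

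STZ was far higher after chitooctaose. Its intensity was 4583, 4726 and 4393 on the chitooctaose arrays, against 176, 265 and 173 on the water arrays. The groups were far apart, and the lowest chitooctaose array stood 16.6-fold above the highest water array. The means were 4567 ± 167 in chitooctaose and 204 ± 52.3 in water (SD, n = 3 each). The mean log2 intensities differed by 4.51, or 22.8-fold. In bulk seedlings, more RNA per responding cell and more responding cells cannot be told apart.

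AT3G53600 gave almost no signal in either treatment. Its intensity was 34.6, 7.41 and 19.5 on the chitooctaose arrays, against 12.9, 8.90 and 11.0 on the water arrays. All 3 water arrays and chitooctaose replicate 2 lay below the floor of 16, and the groups overlapped. The means were 20.5 ± 13.6 in chitooctaose and 10.9 ± 1.99 in water (SD, n = 3 each). Replicate 1 was the highest and replicate 2 the lowest of the chitooctaose arrays. The log2 difference with the floor was 0.47, and it was 0.14 without chitooctaose replicate 1 and 0.70 without chitooctaose replicate 2. No fold change is given for this gene, because the size of a change near the floor depends on the floor.

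**Figure D1:**
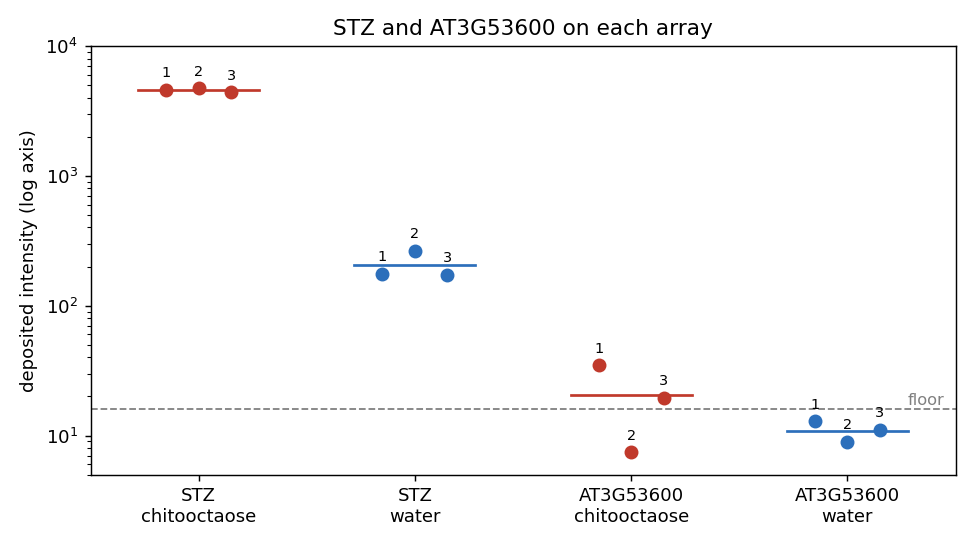
Deposited intensity on a log axis for STZ and AT3G53600, with chitooctaose arrays in red and water arrays in blue, array replicate numbers above the points, bars at the group means and the floor of 16 as a dashed line. The STZ points of chitooctaose lie between 4393 and 4726, all above its water points, while the AT3G53600 points lie between 7.41 and 34.6 around the floor.

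The base level differed between the genes as far as signal over background goes. In water, the STZ intensity exceeded that of 51.6%, 63.1% and 50.4% of the probe sets on its array, close to the middle of the array. In chitooctaose it exceeded 98.3%, 98.5% and 98.2%, which placed it between 351st and 415th from the top. AT3G53600 exceeded 13.8%, 2.01% and 6.54% of the probe sets in chitooctaose, and 3.28%, 2.37% and 2.35% in water. These places compare brightness and not transcript amounts, since probe sets differ in how they bind their target.

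Values below 0 give a sense of the noise at the level of AT3G53600. Each array held 163 to 213 of them, and the median of these negative values lay between -12.5 and -8.70. The lowest value of an array lay between -1027 and -361, so the median does not give the full width of the noise. The 3 water values of AT3G53600, at 8.90 to 12.9, were about as far from 0 as that median. Intensities under 35, above all 6 values of AT3G53600, made up 13.0 to 14.9% of each array. The data therefore give no measured level of AT3G53600 in water, which is not the same as a level of 0.

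Array by array, each of the 9 pairs of a chitooctaose and a water array had STZ higher in chitooctaose, by 16.6-fold to 27.4-fold. Within a pair, the STZ rise ranked between 18th and 40th of all probe sets. For AT3G53600, 6 of the 9 pairs were higher in chitooctaose, those with chitooctaose replicates 1 and 3. With all water values set to the floor, the difference was the same in each pair of a given chitooctaose array. The 3 pairs with chitooctaose replicate 2 had both values at the floor, although the deposited value of that array lay below all 3 water values. The rank of AT3G53600 ran from 740th to 10354th between pairs, so a single pair of arrays says little about its order.

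By the difference of mean log2 intensities, STZ had the 24th largest rise of 22746 probe sets. It had the 14th among the 13513 probe sets with exactly 1 gene. Probe sets with a rise at least as large made up 0.106%. AT3G53600 stood 1531st, with a smaller change for 93.3% of the probe sets, and 880th among those with exactly 1 gene. The median over all probe sets was -0.04. The place of AT3G53600 was 4446th without chitooctaose replicate 1 and 6828th with a floor of 64, where all its values were at the floor and its difference was 0.

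**Figure D2:**
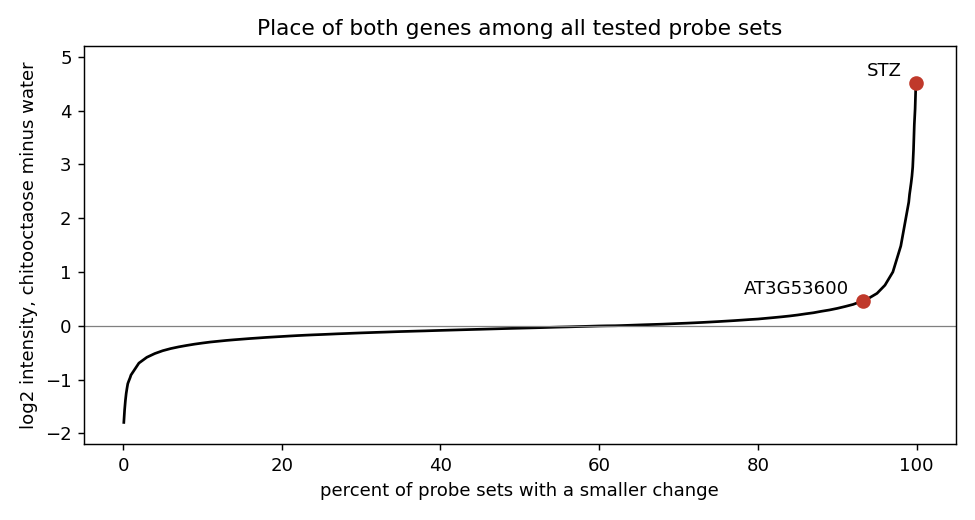
Log2 difference in intensity, chitooctaose minus water, against the percent of the 22746 probe sets with a smaller difference. The black line is the distribution over all probe sets short of its outermost ends, and the red points are STZ at 4.51 and AT3G53600 at 0.47.

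The 23 probe sets with a larger rise than STZ all started from dimmer signals in water. Their water means reached 131 at most, below the 204 of STZ, and 11 of them touched the floor, 6 on all 3 water arrays and 5 on some. None had a chitooctaose mean above that of STZ. None of the 23 is therefore among the 10141 probe sets whose water mean was at least that of STZ. The largest fold there was by construction that of STZ, 22.8-fold, with the deposited scaling. The rank of STZ moved with the floor, at 38th with a floor of 1 and 8th with a floor of 64, while the STZ log2 difference of 4.51 was the same with both. Of the 23, 13 had exactly 1 gene, and among these AT3G12910 stood directly above STZ. AT3G12910 averaged 371 ± 44.7 in chitooctaose (SD, n = 3) and was at the floor on all 3 water arrays, at least 23.1-fold higher in chitooctaose (limma, adjusted p = 2.78e-05).

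Some probe sets as dark in water as AT3G53600 were called as rises. Of the 388 probe sets at the floor on all 3 water arrays, as AT3G53600 was, 25 were called as rises. That was 6.44%, against 4.24% of all probe sets. By the floor, these 388 could not be called as falls. A larger log2 difference than that of AT3G53600 was found in 36 of them. On chitooctaose arrays, 220 of the 388 stayed at the floor throughout, 127 rose above it on 1 or 2 arrays, as AT3G53600 did on 2, and 41 on all 3. Among probe sets with exactly 1 gene, AT4G07750 stood directly above AT3G53600 in the order of change, at 86.5 ± 15.5 in chitooctaose and 62.5 ± 9.46 in water, and AT3G58770 directly below it, at 41.0 ± 6.82 in chitooctaose and listed below 0 on 1 water array. Neither passed the test (limma, adjusted p = 0.369 and 0.717).

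STZ varied more between water arrays than between chitooctaose arrays. The SD of its log2 intensity was 0.05 in chitooctaose, where 505 probe sets of like level (within 0.5 on the log2 scale) had a median SD of 0.07. In water its SD was 0.35, where the median over 3824 probe sets of like level was 0.14 and 93.1% of them had a smaller SD. The water spread came from replicate 2, which at 265 was 1.53-fold above the lowest water array. Replicate 2 exceeded the mean of the other water arrays by 0.60 on the log2 scale, or by 0.70 after each array was centred on its median, and 2.3% of the rises with no water array at the floor had a larger excess. Without water replicate 2 the STZ difference was 4.71. Why this array was higher was not tested.

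None of the measured genes listed as relatives of STZ was called as a rise. At the share of rises given below, 0 among so few genes does not set the list apart. A list of 31 C2H2 genes, labelled here as C1-2i, had, beside STZ and AT3G53600, 16 measured members. The subclass of each listed gene was not checked, and some may belong to other C2H2 subclasses. The test called 1 fall and 0 rises among the 16, leaving 15 uncalled (limma, adjusted p under 0.05, where 3.74% of all probe sets with exactly 1 gene rose and 0.570% fell). The median log2 difference of the 16 was 0.05, against -0.04 over all probe sets, and the highest was 0.81. The other 13 genes of the list, among them the well-known ZAT genes induced by stress, are not analysed here, so these counts do not speak for the whole subfamily.

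AT2G28200 was the member that fell, in the direction opposite to STZ. It stood at 119, 113 and 123 in chitooctaose, against 222, 220 and 236 in water. All chitooctaose arrays were below all water arrays, as for 10.4% of all probe sets, and the log2 difference was -0.94 (SE 0.08, limma, adjusted p = 0.00179), or 1.91-fold lower in chitooctaose.

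AT5G04390 had the largest difference above 0 after STZ in this list. It stood at 94.4, 81.0 and 108 in chitooctaose, against 49.5, 73.0 and 42.9 in water. The groups did not overlap, as was the case for 9.10% of all probe sets in this direction, and the log2 difference of 0.81 did not pass (limma, adjusted p = 0.186). Like STZ, it had its highest water value on replicate 2.

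AT3G46070 averaged 57.9 ± 14.9 in chitooctaose and 36.4 ± 5.86 in water (SD, n = 3 each), with overlapping groups and a log2 difference of 0.64 (limma, adjusted p = 0.323). AT1G49900, AT5G03510, AT2G28710 and AT5G56200 had log2 differences of 0.29, 0.24, 0.16 and 0.12. AT3G60580, AT3G10470, AT1G26610, AT3G49930 and AT2G45120 lay between -0.02 and 0.08. AT2G26940, AT4G16610 and AT1G26590 had -0.15, -0.18 and -0.30. AT5G61470 was below the floor on all 6 arrays, the only 1 of the 16 to share that with AT3G53600 in water. Apart from AT2G28200, AT4G16610 and AT5G61470, the mean intensities of these genes lay between 36.4 and 94.5, dimmer than STZ in water.

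**Figure D3:**
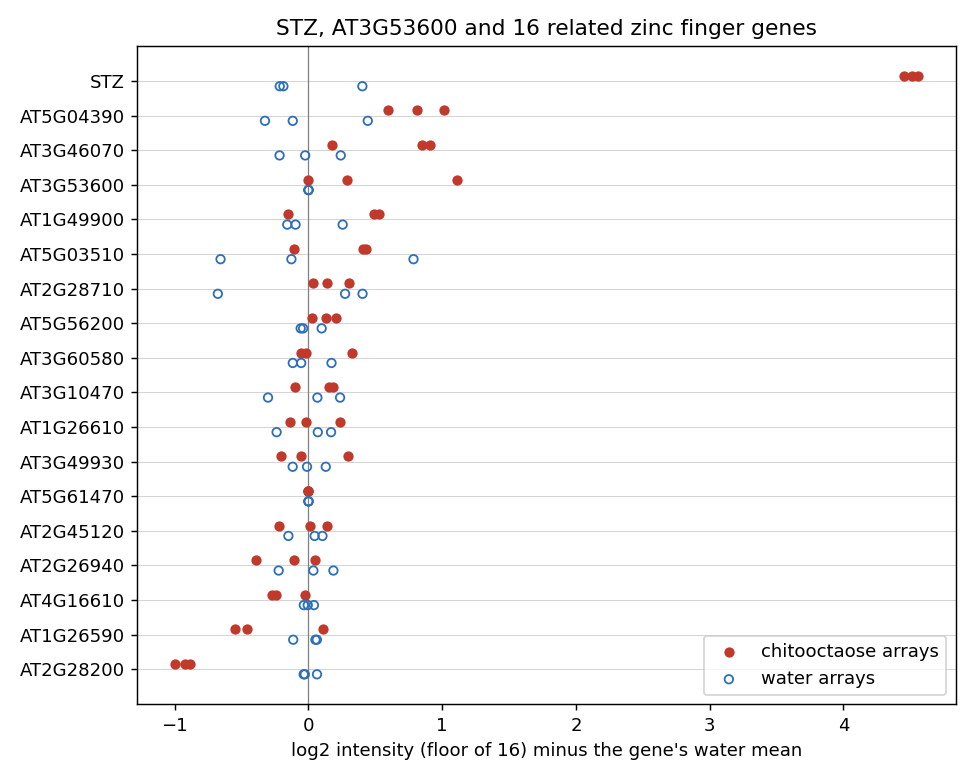
Log2 intensity with a floor of 16, minus each gene's water mean, for STZ, AT3G53600 and 16 measured genes of the C1-2i list, with 1 row per gene, chitooctaose arrays as red points and water arrays as open blue circles. STZ lies highest at about 4.51, AT2G28200 lies lowest at -0.94 and the means of the other genes lie between -0.30 and 0.81.

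Other zinc finger classes were measured less fully. Of 13 measured single-finger and IDD-type C2H2 genes, named after INDETERMINATE and acting mostly in development, 0 were called as rises or falls, where the shares over all probe sets with exactly 1 gene were 3.74% and 0.570%, and their median log2 difference was -0.26. AT1G14580 had the highest mean among them, at 333 ± 72.5 in chitooctaose and 347 ± 27.0 in water (SD, n = 3 each). Of 7 measured CCCH and A20/AN1 zinc finger genes, many of which are linked to stress, a single gene was called, as a rise, and the other 6 were not, and against those shares neither count sets the classes apart. The gene was AT3G52800, with 2619, 1939 and 2473 in chitooctaose against 978, 976 and 978 in water, 2.38-fold higher in chitooctaose (limma, adjusted p = 0.00208). Among the measured genes of these zinc finger lists, STZ was 1 of 2 with a log2 difference above 1, at 4.51 against 1.25 for AT3G52800. Over all probe sets, the 0.97 quantile of the log2 difference was 1.00. STZ was chosen by its values on these arrays, so its place in the lists is a description.

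The lists of MAP kinase cascade genes and of stress outputs set beside STZ had few measured members, and none was called. Of all probe sets with exactly 1 gene, 3.74% were called as rises and 0.570% as falls. The lack of calls among so few genes therefore does not set them apart. LTI30, a dehydrin gene of cold and drought responses, averaged 765 ± 88.1 in chitooctaose and 588 ± 77.8 in water (SD, n = 3 each; limma, adjusted p = 0.250). COR47, another dehydrin gene and the 1 with the highest mean of 4 measured cold and drought genes, had a log2 difference of -0.06, and the cold-regulated genes COR15A and COR15B had 0.20 and 0.08. SAPX and TAPX, ascorbate peroxidases of the chloroplast that remove hydrogen peroxide, had -0.02 and -0.05. LTI30, COR15A, COR15B and TAPX lie outside the naming rule and are given as the other measured genes of their lists. ATMPK13, a MAP kinase gene, averaged 45.7 ± 24.3 in chitooctaose and 68.2 ± 4.79 in water (limma, adjusted p = 0.542). The kinases MPK3 and MPK6, which act on STZ protein, the EAR co-repressors and the jasmonate genes listed are not analysed here.

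STZ is known to be induced early by many stresses, and a list of genes with that property was set beside it. Of 33 listed genes of this rapid general stress response, 14 were measured, of which 12 were called as rises, 0 as falls and 2 not at all (3.74% of all probe sets with exactly 1 gene were rises and 0.570% falls), with a median log2 difference of 2.92, against -0.04 over all probe sets. This list was written with earlier results of these arrays known and is no independent evidence. The transcription factor gene WRKY53 had a larger difference than STZ, 4.92, and so did AT1G66090, 4.66. AR781 was next below STZ in the order of probe sets with exactly 1 gene, at 4.50. CML37 and CML38, calmodulin-like calcium sensors, had 4.45 and 2.31, and PUB22 and PUB23, U-box ubiquitin ligases, had 2.56 and 2.69. ORA47 and AT1G19210 did not pass, at 0.12 and 0.08 (limma, adjusted p = 0.680 and 0.916). CML38, PUB22, PUB23, ORA47 and AT1G19210 were singled out after their values were seen.

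**Figure D4:**
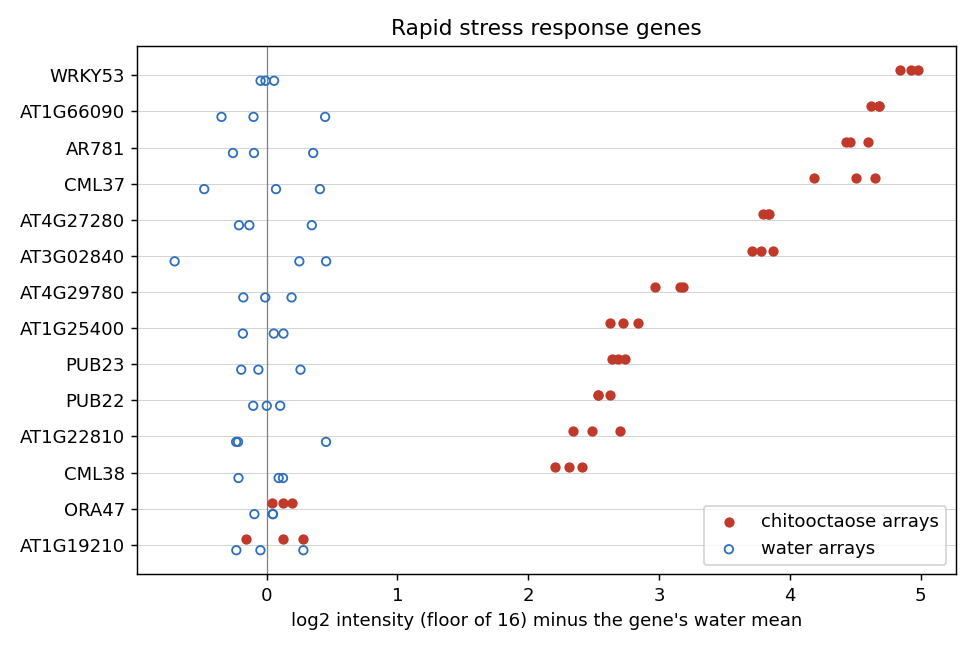
Log2 intensity with a floor of 16, minus each gene's water mean, for the 14 measured rapid stress response genes, with chitooctaose arrays as red points and water arrays as open blue circles. The groups are apart for the 12 genes that rose, from CML38 at 2.31 to WRKY53 at 4.92, and overlap for ORA47 and AT1G19210.

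The genes most like STZ were sought by the distance between log2 profiles over the 6 arrays, each gene set to its own mean, among 13353 other genes. As the distance uses the same arrays as the choice of STZ, it is a description, and genes with like rises come first by construction. AR781 was nearest, at a distance of 0.17, with 3071, 2797 and 2738 in chitooctaose against 119, 162 and 106 in water. Its highest water array was replicate 2, as for STZ. AT1G66090 came next at 0.27, with 1915, 1919 and 1834 in chitooctaose against 58.8, 102 and 69.6 in water, again with replicate 2 highest in water. AT2G25735, CML37 and AT1G72920 followed at 0.54, 0.54 and 0.57. They were 17.2-fold, 21.8-fold and 19.5-fold higher in chitooctaose than in water, and CML37 had 1 water array at the floor, so that its log2 difference of 4.45 became 2.93 with a floor of 64. Replicate 2 was the highest water array in all 5 genes, which the choice by distance also favours, since the distance includes that array.

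**Figure D5:**
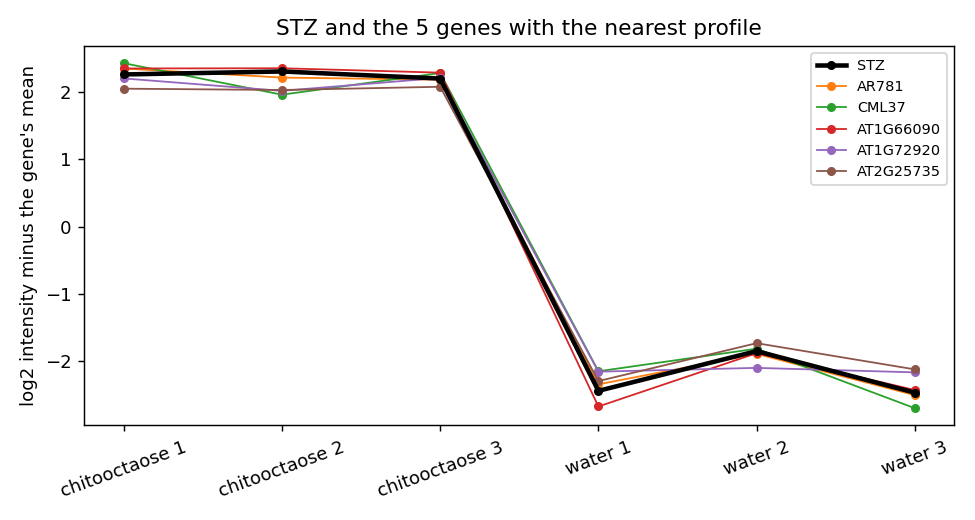
Log2 intensity minus each gene's mean over the 6 arrays, for STZ (thick black line) and the 5 genes with the nearest profile, with chitooctaose arrays on the left and water arrays on the right. The lines of AR781 and AT1G66090 run closest to STZ, at distances of 0.17 and 0.27, and share its higher value on water replicate 2.

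The profile of AT3G53600 had nearest neighbours that were mostly as dim as itself. AT1G71000, AT2G14650, AT2G05020, AT5G26260 and AT4G29090 lay at distances of 0.26 to 0.32, and none passed the test (limma, adjusted p from 0.370 to 0.720). AT1G71000, AT2G05020 and AT4G29090 were at the floor on all 3 water arrays and 2 chitooctaose arrays, so likeness there is likeness of values at the floor. AT5G26260 was bright, at 810, 473 and 576 in chitooctaose against 432, 408 and 464 in water, with replicate 1 highest in chitooctaose as for AT3G53600.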

How the data were processed

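RNA of whole seedlings was read on 6 Affymetrix arrays, 3 per treatment. The authors deposited linear intensities, a value for each probe set on each array; cRNA was made from 7 µg of total RNA by the manufacturer's protocol, per the labels' protocols. The sources used here do not give the summary method, background correction or scaling, and the number of arrays limits precision. Titles and protocols gave the groups; the series text gives 3 min in place of 30 min, and the description of the chitooctaose arrays names water.

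Of 22810 probe sets, 64 controls were left out. Genes were named by the platform annotation and RefSeq genes of TAIR10.1 (13436 of 13513 probe sets with 1 gene matched). No coordinates are given, as the array's build is not stated, and that gene table was used only for names and for which genes neighbour each other. A search of the gene table for zinc finger or C2H2 found STZ alone, so no family was taken from it. No sequences are printed, as none were at hand.

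Intensities below 16 were set to 16, log2 was taken, and limma 3.58.1 in R 4.3.3 (lmFit, eBayes with trend) compared chitooctaose with water, 2-sided, with Benjamini-Hochberg adjustment over 22746 probe sets. All adjusted p-values are from it; the script was tested on simulated data. Where all water arrays were at the floor, a fold is a lower bound. Several probe sets of a gene were represented by the brightest.

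The members and the 9 gene lists were chosen with earlier results of these data known. Named were the members and all other measured genes of the C1-2i list. Per list, up to 3 called genes of largest change or else the brightest were named. Also named were the 5 nearest profiles per member and the genes next to each in the order of change. Other genes of the lists are marked as chosen later or as outside this rule, save those named for calls that changed with a setting. Alternatives were other floors, scalings, variance models and filters, single arrays left out and the replicate number as a block. Deviations of same-numbered arrays correlated at 0.05, 0.03 and -0.10, against at most 0.03, 0.07 and 0.07 for other numbers. With 3 arrays per group, this cannot show whether the numbers pair arrays. The main fit used no pairing.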

Additional observations from a re-analysis of the deposited data

How the results depend on the processing

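The log2 difference of STZ stayed between 4.40 and 4.71 with single arrays left out and between 4.48 and 4.51 under the other settings. Its rank was 38 with a floor of 1 and 8 with a floor of 64, because the floor changes the dim probe sets above it, and 19 to 28 with single arrays left out. AT3G53600 had a log2 difference of 0 and a rank of 6828 with a floor of 64, which exceeds all its values, and 0.14 to 0.70 with ranks of 1037 to 4446 with single arrays left out. It has no value without the dimmest 40% of probe sets. The gap between the genes was 3.79 to 4.37 on the log2 scale with single arrays left out.

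In all, 1147 probe sets were called, against 754 at an adjusted p under 0.01 and 687 at 2-fold or more, where fewer pass by construction. The C1-2i list kept 1 fall under each setting. Without chitooctaose replicate 1 the single-finger and IDD-type list had 1 call (GIS, adjusted p = 0.0189), against 0, and after quantile normalization the CCCH and A20/AN1 list had 2, against 1, AT2G36320 being the added fall (limma, adjusted p = 0.0418); the causes were not tested. The 14 called genes of the lists kept their calls and signs under each setting run for them. A fit with a replicate block called 847 probe sets (754 rises and 93 falls, against 964 and 183 without the block) and gave the same list counts. With single arrays left out, 86 to 176 falls were called, from fewer arrays. Low signal limits the values of AT3G53600.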

Other observations

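The higher value of STZ on water replicate 2 was shared by many genes with large rises. This was looked for after the STZ values were seen, and its cause was not tested. Of 83 rises of at least 8-fold with no water array at the floor, 58 (69.9%) had their highest water intensity on replicate 2, 12 on replicate 1 and 13 on replicate 3. Of all 912 rises with no water array at the floor, replicate 2 was highest for 393 (43.1%), and of all 20985 such probe sets for 5856 (27.9%). The median excess of replicate 2 over the mean of the other water arrays was 0.28 on the log2 scale for rises of at least 8-fold, against -0.06 for all such probe sets, or 0.38 against 0.04 after median centring. Probe sets are not independent replicates, and these shares describe 3 arrays.

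The genes next to STZ and AT3G53600 on their chromosomes were measured in part. Of the 3 protein-coding genes on each side of STZ, AT1G27700 was measured, at 213 ± 65.6 in chitooctaose and 231 ± 37.2 in water (SD, n = 3 each; limma, adjusted p = 0.882). Beside AT3G53600, the adjacent AT3G53590 averaged 23.5 ± 6.73 in chitooctaose and 26.6 ± 3.43 in water, and AT3G53580 averaged 1805 ± 215 in chitooctaose and 1872 ± 154 in water (limma, adjusted p = 0.786 and 0.893).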
